A study of Mus musculus with 19 samples.

Results

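The genes described here copy DNA at the replication fork, or supply and mark what the fork needs: 39 genes chosen by symbol for their roles. They encode the sliding clamp and its loaders, the polymerases and primase, the single-strand binding protein, Okazaki fragment enzymes, partners of the replicative helicase, fork protection proteins, a chromatin assembly factor, enzymes of deoxynucleotide (dNTP) synthesis and a pair of proteins that maintain DNA methylation. Of the 39, 38 had a probe set that named them alone in the annotation used, and Chaf1a was therefore not tested. The 38 belong to 14996 genes tested. Transcripts were measured on 19 Affymetrix mouse expression arrays in NIH3T3 cells, an immortalised line of mouse fibroblasts. The cells were first starved for 48 h in 0.1% serum to make them quiescent, and every state shares this starvation. Quiescent cells were sampled before any FGF, on 3 arrays, of which replicates 1a and 1b came from experiment 1 and were averaged, and replicate 2 came from experiment 2. Basic fibroblast growth factor (FGF) at 50 ng/ml was then given for 1, 4, 7 or 12 h. U0126 blocks MEK, the kinase that activates ERK, and was used at 20 µM together with the same FGF. It was added 0.5 h before FGF (called here U0126 from the start) and measured at 1, 4, 7 and 12 h, or added 1 h after FGF and measured at 7 h, or added 7 h after FGF and measured at 12 h. States at 4, 7 and 12 h had 2 arrays each, from experiments 1 and 2, while both states at 1 h and both late additions had 1 array from experiment 1. None of these arrays held U0126 without FGF, and the labels do not say whether replicates came from separate cultures, so the spread behind the p-values may be technical. The time-0 arrays are the only ones here without FGF, so a change with FGF and a change with time in culture cannot be told apart.

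At a replication fork the CMG helicase (the MCM ring with CDC45 and the GINS proteins) opens the duplex, and RPA coats the exposed single strand. Polymerase alpha and primase start each strand, replication factor C loads the ring-shaped clamp PCNA, and polymerases epsilon and delta extend on the leading and lagging strands. FEN1 and DNA ligase 1 trim and seal the lagging-strand pieces, while ribonucleotide reductase, thymidylate synthase, thymidine kinase and dUTPase keep the dNTP pool supplied and free of uracil. In fibroblasts that return from quiescence many of these genes are transcribed before S phase, and E2F transcription factors are the textbook regulators of that programme.

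Promoter windows show letters that many of these genes share and the choice of genes did not use. RefSeq windows (build GRCm38.p6), each with 250 bases before and 50 after a transcript start, were given for 30 of the 38 genes, 37 windows in all. They were searched on both strands for an E2F core, spelled TTCCCGC, with TTCGCGC, also TTGCCGC and further TTGGCGC as its other forms, and for the letters CCAAT. An E2F core was found in 22 of the 37 windows (59.46%), belonging to 20 of the 30 genes, against 9.57% of all 32851 windows of that length and 12.11% of the 21263 windows of protein-coding genes. Counted by gene, the 20 of 30 stand beside 10.86% of all 27025 genes with a window. The 10 genes without a match were Cdc45, Dut, Pcna, Pola2, Pold2, Rfc5, Rpa1, Timeless, Tk1 and Tyms. At least 2 matches were found in 7 of the 37 windows and in 1.18% of all windows. Of 32 matches, 24 lay after the start or within 100 bases before it, and the median position was -7 bases from the start. CCAAT was found in 19 of the 37 windows (51.35%), against 37.41% of all windows. A match is a description of the letters and not evidence of binding. Stretches of 180 bases before and 30 after the start are given for 4 genes, chosen for the range from many matches to none, each read 5′ to 3′ along the gene with the E2F core in capitals (GCGGGAA and the like are the same core on the other strand). Pola1 (chrX:93632126-93632335, minus strand) holds 4 matches, Rfc3 (chr5:151651179-151651388, minus strand) and Pclaf (chr9:65890143-65890352, plus strand) hold 2 each, and Tk1 (chr11:117825985-117826194, minus strand) holds none of these letters in the window.
Pola1: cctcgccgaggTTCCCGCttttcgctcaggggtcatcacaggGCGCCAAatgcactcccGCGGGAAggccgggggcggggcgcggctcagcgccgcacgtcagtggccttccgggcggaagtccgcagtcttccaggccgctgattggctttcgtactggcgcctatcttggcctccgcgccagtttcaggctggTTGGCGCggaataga
Rfc3: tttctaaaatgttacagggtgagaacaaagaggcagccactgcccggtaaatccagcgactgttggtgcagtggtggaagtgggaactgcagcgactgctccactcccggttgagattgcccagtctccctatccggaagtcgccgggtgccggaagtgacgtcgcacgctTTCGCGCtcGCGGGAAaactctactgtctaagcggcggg
Pclaf: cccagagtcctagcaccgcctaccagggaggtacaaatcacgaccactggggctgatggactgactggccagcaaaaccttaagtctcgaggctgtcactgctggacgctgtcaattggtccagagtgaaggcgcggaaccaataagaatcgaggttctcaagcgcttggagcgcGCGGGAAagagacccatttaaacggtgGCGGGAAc
Tk1: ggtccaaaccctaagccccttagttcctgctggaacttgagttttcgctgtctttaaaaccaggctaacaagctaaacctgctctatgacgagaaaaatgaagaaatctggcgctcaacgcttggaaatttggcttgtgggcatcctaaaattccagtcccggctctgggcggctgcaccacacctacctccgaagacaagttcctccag

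Signals are MAS5 intensities on a linear scale, set by the authors to a common trimmed mean of 500 on every array. A change in total RNA per cell is therefore not visible, and fewer cells that express a gene cannot be told apart from less of its RNA per cell. Differences are log2(signal + 13.6) ± SE from limma, fitted over all 14996 genes, and a gene is said to rise or fall where its p, adjusted by Benjamini-Hochberg over those genes, was under 0.05. Signals under 45.2, the 40th percentile of all values, were not shown to be above background. Signals of different probe sets are not comparable, so levels are compared only within a gene. The 9 fibroblast markers were above 45.2 on all 19 arrays, with summed signals of 149290 to 236226. Sums of macrophage, epithelial, endothelial, muscle and adipocyte markers stayed between 11.7 and 775.3, and sums over different probe sets are only a rough guide. Ptprc, Krt18, Krt19, Pecam1, Cdh5, Tek, Myod1, Myog, Adipoq, Fabp4 and Lep had a median of 45.2 or less. The other macrophage, epithelial, endothelial and muscle markers had a higher median, with Lyz2 (198.9), Epcam (298.5), Kdr (58.5) and Acta1 (74) the highest of their lists. On all arrays 2 macrophage markers and 1 epithelial marker were above 45.2. Median signal per array was 60.2 to 88.3. Samples of one experiment number deviated together, so the fit was repeated with the experiment as a replicate block, and its values are given beside the counts and calls they change.

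After 1 h of FGF none of the 38 genes passed, and after 12 h all 38 were higher than in quiescent cells. At 1 h, 0 of 38 rose or fell in the limma fit, and 1 had an unadjusted p under 0.05; 0.373% of all genes were called higher and 0.107% lower. Only Tk1 was called lower at 1 h, with the replicate block (-1.39 ± 0.30, adjusted p = 0.0241 with the block; -1.01 ± 0.56, adjusted p = 0.593 without), which makes 1 of 38 against 0.674% of all genes. At 4 h Pcna rose by 0.66 ± 0.16 (3.92% of all genes were called higher) and Prim1 fell by 0.61 ± 0.17 (4.99% lower). At 7 h 12 of the 38 rose and 0 fell, against 5.45% and 7.2% of all genes. At 12 h the 38 rises compare with 8.54% of all genes called higher and 11.8% lower. The median difference from quiescence over the 38 genes was -0.13 at 1 h, 0.04 at 4 h, 0.66 at 7 h and 2.09 at 12 h, beside medians over all genes of 0.0014, -0.09, -0.05 and -0.02.

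The 12 genes called at 7 h were Pcna, Rfc3, Dscc1, Pold2, Pole2, Rpa2, Fen1, Gins1, Tipin, Clspn, Rrm2 and Uhrf1. The replicate block raised the count at 7 h to 21 (9.16% of all genes), adding Cdc45, Chaf1b, Dnmt1, Gins2, Pola1, Pola2, Pole, Rfc5 and Tk1. Leaving out quiescent replicate 2 cut the count at 7 h to 3, and leaving out the first FGF 7 h array cut it to 4. The calls of Pcna, Rpa2 and Uhrf1 at 7 h held under every alternative that was run. At 4 h the block gave 3 higher and 1 lower (7.13% and 10.6% of all genes), the added ones being Pold2 and Rpa2. The count at 4 h fell to 0 without quiescent replicate 2 or without either FGF 4 h array.

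The larger step lay between 7 and 12 h. That interval is longer than the one from 4 to 7 h, and the steps were not tested against each other. From 7 to 12 h 31 of 38 genes rose (1.53% of all genes rose), while from 4 to 7 h only Uhrf1 did, by 1.73 ± 0.23 (0.06% of all genes). Both 12 h arrays lay above both 7 h arrays for all 38 genes. Such separation was not counted over all genes, and with so few arrays it can arise without a real change. The median step was 0.51 from 4 to 7 h and 1.45 from 7 to 12 h, beside 0.02 and -0.0016 over all genes. The 7 genes that did not pass from 7 to 12 h were Dut (0.57 ± 0.17), Gins2 (1.26 ± 0.31), Pold1 (0.85 ± 0.26), Pold3 (0.64 ± 0.22), Pole2 (0.89 ± 0.22), Rfc1 (0.64 ± 0.16) and Timeless (1.52 ± 0.55), of which all but Timeless passed with the replicate block (37 calls, 2.93% of all genes). The block also raised the calls from 4 to 7 h to 9 (0.987% of all genes), adding Cdc45, Dscc1, Gins1, Pole2, Prim1, Rfc3, Rrm2 and Tipin. From 7 to 12 h the count was 18 when the second FGF 7 h array was left out and 7 when the first FGF 12 h array was, and from 4 to 7 h it was 0 without FGF 4 h replicate 2 or either FGF 7 h array. The calls from 7 to 12 h that held under every alternative were those of Cdc45, Dscc1, Lig1, Pclaf, Pole, Prim1 and Rrm1.

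**Figure D1:**
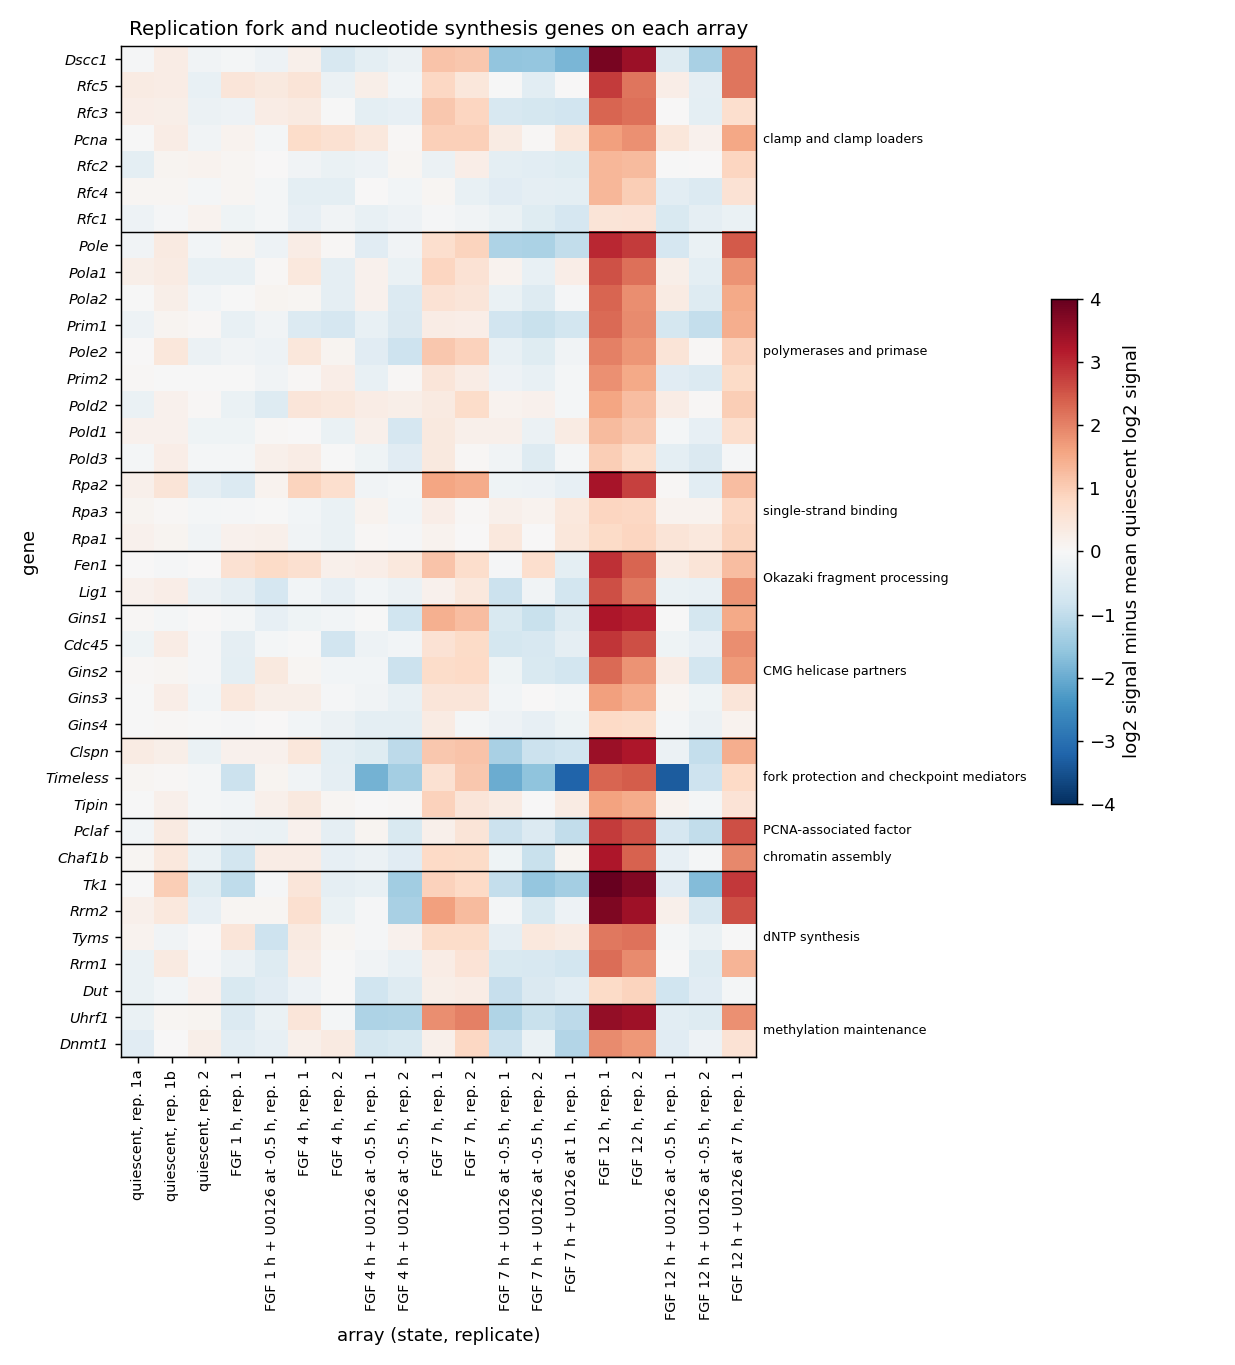
Rows are the 38 genes grouped by role and columns the 19 arrays, coloured by log2 signal minus the mean log2 of the quiescent state. Both FGF 12 h arrays are red in all rows, the arrays with U0126 from the start are pale or blue in most rows, and the array with U0126 added at 7 h lies between them for most genes.

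Thymidine kinase (Tk1), which salvages thymidine for the dNTP pool, had the largest rise at 12 h, 3.94 ± 0.46 or 15.3-fold. It was followed by the clamp loader subunit Dscc1 (3.62 ± 0.33), the ribonucleotide reductase subunit Rrm2 (3.56 ± 0.39), Uhrf1 (3.46 ± 0.23), the checkpoint mediator Clspn (3.33 ± 0.34), Gins1 (3.16 ± 0.29) and Rpa2 (3.02 ± 0.26). At the other end were the large clamp loader subunit Rfc1 (0.54 ± 0.16, 1.45-fold), Gins4 (0.77 ± 0.15), Rpa1 (0.81 ± 0.15), Dut (0.83 ± 0.17), Rpa3 (0.85 ± 0.14) and Pold3 (0.86 ± 0.22). Both 12 h arrays exceeded all 3 quiescent arrays for each of the 38 genes, which was not counted over all genes. Of the 38 calls, 34 held under every alternative. Pold1 missed without quiescent replicate 2 (adjusted p = 0.0623), Timeless with an offset of 1 (0.058), Rfc1 without FGF 12 h replicate 1 or 2 (0.0887 and 0.115), and Pold3 without quiescent replicate 2 (0.106), without FGF 12 h replicate 1 (0.107) or with its probe set of highest variance (0.062).

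With U0126 from the start 37 of the 38 genes were lower at 12 h than with FGF alone (5.79% of all genes). At 12 h 0 of the 38 were called above quiescence, beside 2.43% of all genes, so that 0 is near the share over all genes. With the replicate block Rpa1 was called above quiescence. Against FGF alone, 3 of 38 genes were lower with U0126 at 4 h, 21 at 7 h and 37 at 12 h, and 0 were higher, beside 2.73%, 3.05% and 5.79% of all genes called lower (3.21%, 3.04% and 6.26% higher). The 3 at 4 h were Pole2, Uhrf1 and Dnmt1. The median effect over the 38 genes was -0.25 at 4 h, -0.97 at 7 h and -2.28 at 12 h, beside 0.04, -0.04 and 0.05 over all genes. Both inhibited arrays lay below both FGF arrays for 36 of 38 genes at 7 h, the exceptions being Rpa1 and Rpa3, and for all 38 at 12 h. The share of all genes with such separation was not counted. With the replicate block 8 genes were lower at 4 h (6.03% of all genes), adding Dut, Pcna, Rpa2, Rrm2 and Tk1. At 7 h the block gave 28 (6.3% of all genes), adding Gins4, Lig1, Pola1, Pola2, Pold3, Rfc5 and Tipin, and at 12 h it gave 38 (9.08%), adding Rpa1. Of the 21 calls at 7 h 12 held under every alternative (Cdc45, Clspn, Dscc1, Dut, Gins1, Pole, Pole2, Prim1, Rfc3, Rpa2, Rrm1 and Uhrf1), and of the 37 at 12 h 35 did, the exceptions being Pold3 and Rfc1. The count at 4 h was 1 without FGF 4 h replicate 1 or without the second array of FGF 4 h with U0126, and only Uhrf1's call held with each left out; it was lost with the probe set of highest variance (adjusted p = 0.0933).

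Set against quiescent cells, the inhibited cells were near or below the starting level for most of these genes. The comparison uses the same quiescent arrays as the rises above. At 4 h Dut (-0.66 ± 0.17) and Uhrf1 (-1.22 ± 0.23) fell below quiescence (4.07% of all genes were lower and 3.31% higher). At 7 h Dscc1 (-1.57 ± 0.33), Pole (-1.24 ± 0.25), Uhrf1 (-1.04 ± 0.23), Prim1 (-0.83 ± 0.17) and Dut (-0.75 ± 0.17) fell (5.33% of all genes lower, 3.73% higher). At 12 h Timeless (-2.06 ± 0.55) and Prim1 (-0.82 ± 0.17) fell (2.99% of all genes), and 0 genes rose (2.43% of all genes). The Timeless fall rests on a probe set with inhibited 12 h signals of 4.1 and 86.6. A second Timeless probe set gave a 12 h rise of 2.60 ± 0.29 and a U0126 effect of -2.68 ± 0.29. These are nearly equal in size, so that probe set does not show the fall. The largest differences upward at 12 h did not pass: Rpa1 at 0.48 ± 0.15 (adjusted p = 0.0733) and Fen1 at 0.41 ± 0.25 (adjusted p = 0.427). Over the 38 genes the median difference was -0.24 at 4 h, -0.39 at 7 h and -0.22 at 12 h, beside -0.03, -0.08 and 0.01 over all genes. The replicate block gave 9 lower at 4 h (8.7% of all genes), 15 at 7 h (10.8%) and 9 at 12 h (8%), where Rpa1 also rose (6.4% of all genes called higher; adjusted p = 0.0087). These counts rest on single arrays: without quiescent replicate 2 they were 0, 2 and 0, and without the first array of the inhibited state 1, 1 and 1. Without quiescent replicate 1b the 4 h count was 1, without replicate 1a the 12 h count was 4, and without the second inhibited array at 12 h it was 1.

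**Figure D2:**
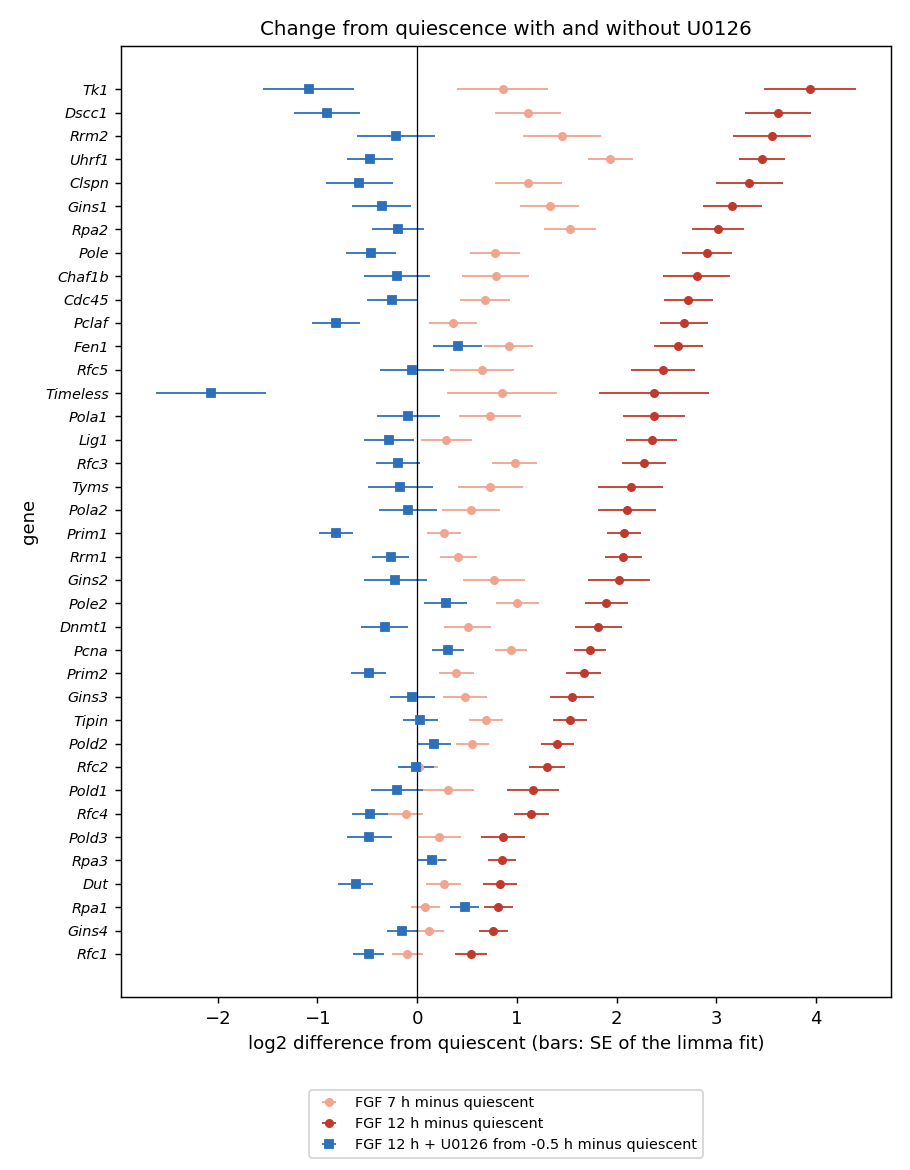
Each row is a gene, ordered by its rise at 12 h, with log2 differences from quiescent cells for FGF at 7 h and 12 h and for FGF with U0126 from the start at 12 h; bars are SE of the limma fit. Differences with FGF alone at 12 h run from 0.54 (Rfc1) to 3.94 (Tk1), while those with U0126 run from -2.06 (Timeless) to 0.48 (Rpa1).

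Clamp and clamp loader genes rose in all 7 cases at 12 h, with a median of 1.73. Here and below, signals are given for experiments 1 and 2 in that order, and for quiescent replicates 1a, 1b and 2. Pcna, the sliding clamp that tethers polymerases, was 7366, 9001 and 6673 in quiescent cells, 8195 at 1 h, 12201 and 11156 at 4 h, 14210.0 and 14206 at 7 h and 23001 and 26237 at 12 h of FGF. With U0126 from the start it was 6998 at 1 h, 9879.8 and 7658 at 4 h, 9357 and 7636 at 7 h and 10010.3 and 8362 at 12 h. From 4 h on all FGF arrays lay above all quiescent arrays, whereas the inhibited arrays lay within the quiescent range or just above it. The U0126 effect on Pcna was -0.75 ± 0.16 at 7 h and -1.42 ± 0.16 at 12 h, both called. Rfc3, a small subunit of the loader that opens PCNA, was 339, 328 and 233 in quiescent cells, 238 at 1 h, 363 and 279 at 4 h, 606 and 522 at 7 h and 1461 and 1348 at 12 h. Inhibited cells gave 347, then 211 and 220.3, then 175 and 166 and last 282 and 208 at those times. The 7 h inhibited values were under every quiescent value, although that difference did not pass (-0.67 ± 0.22, adjusted p = 0.0802; 0.0143 with the replicate block).

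Dscc1, a subunit of the alternative clamp loader that also serves sister chromatid cohesion, began low and spanned the widest range of its role. Its signal was 110.4, 142 and 103 in quiescent cells, 106 at 1 h, 132 and 68.6 at 4 h, 265 and 257 at 7 h and 1771 and 1359.8 at 12 h of FGF. Under U0126 it was 97.5 at 1 h, 83.3 and 95.7 at 4 h, 28.7 and 29.9 at 7 h and 75.4 and 38.3 at 12 h. Both inhibited 7 h values and the second at 12 h were under 45.2, so the size of the U0126 effect (-2.68 ± 0.33 at 7 h, -4.53 ± 0.33 at 12 h) depends on the offset. The other loader subunits rose by 12 h without a call at 7 h: Rfc5 by 2.47 ± 0.32 (called at 7 h with the block only), Rfc2 by 1.30 ± 0.18 and Rfc4 by 1.15 ± 0.18. Rfc1, the large subunit, was 910.3, 1021 and 1166 in quiescent cells and 1526 and 1569.9 at 12 h, against 691 and 820.5 with U0126. Its U0126 effect, -1.03 ± 0.16, was larger than its rise, since both inhibited values lay below all quiescent ones (-0.49 ± 0.16, adjusted p = 0.0892; 0.0224 with the block). With its probe set of highest variance the U0126 effect on Rfc1 at 12 h did not pass (adjusted p = 0.0554).

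Polymerase and primase genes rose in 9 of 9 cases at 12 h, between 0.86 and 2.90. Pola1, the catalytic subunit of polymerase alpha, was 266, 281 and 179 in quiescent cells, 177 at 1 h, 304 and 168 at 4 h, 416 and 341 at 7 h and 1366 and 1060.1 at 12 h. In the inhibited state it was 230.3 at 1 h, 253 and 183 at 4 h, 243 and 179 at 7 h and 260.2 and 165 at 12 h. The 7 h FGF values exceeded all quiescent ones, but that difference passed only with the block (0.73 ± 0.31, adjusted p = 0.161; 0.00719 with it). Its partner Pola2 rose by 2.10 ± 0.29 at 12 h and was -2.19 ± 0.29 with U0126 against FGF alone. Prim1, the catalytic primase subunit, was 765, 949 and 898 in quiescent cells, 715 at 1 h, 592 and 545 at 4 h, 1071 and 1045 at 7 h and 4243 and 3275 at 12 h. With the inhibitor it was 786 at 1 h, 716 and 576 at 4 h, 508 and 466 at 7 h and 538 and 448 at 12 h. Prim1 thus fell at 4 h with FGF before it rose, while all inhibited values from 4 h on lay under the quiescent range. Prim2, the regulatory primase subunit, rose by 1.67 ± 0.18 at 12 h and its U0126 effect was -2.16 ± 0.18.

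Among the polymerase epsilon genes, the catalytic subunit Pole rose most, by 2.90 ± 0.25. Pole was 122, 178 and 123 in quiescent cells, 224 and 260.0 at 7 h and 1180.5 and 1017 at 12 h of FGF, against 50.0 and 48.3 and 79.6 and 110.3 with U0126 at those times. Pole2, its second subunit, was 610.3, 831 and 511 in quiescent cells, 543 at 1 h, 836 and 646 at 4 h, 1294 and 1159.9 at 7 h and 2499 and 2085 at 12 h. Its inhibited values were 523 at 1 h, 434 and 334 at 4 h, 492 and 427 at 7 h and 869 and 629 at 12 h. Pole2 was one of the 3 genes already lower with U0126 at 4 h (-0.93 ± 0.22, adjusted p = 0.0182), a call lost without FGF 4 h replicate 1 (0.171) or without the second inhibited 4 h array (0.157). Polymerase delta genes moved less. Pold1, the catalytic subunit, was 481, 479.9 and 375 in quiescent cells, 373 at 1 h, 426 and 348 at 4 h, 565 and 494 at 7 h and 1029.8 and 907 at 12 h. Inhibited arrays gave 443 at 1 h, 489.7 and 264 at 4 h, 493 and 362 at 7 h and 403 and 334 at 12 h. Both 7 h FGF values of Pold1 were above the quiescent and the inhibited 7 h ones, without a call. The second inhibited 4 h value was under the quiescent ones. At 12 h the states lay further apart, with a U0126 effect of -1.36 ± 0.26. The accessory subunits Pold2 and Pold3 rose by 1.40 ± 0.17 and 0.86 ± 0.22 at 12 h. Their U0126 effects at 12 h were -1.23 ± 0.17 and -1.34 ± 0.22, but with its probe set of highest variance Pold3 did not pass (adjusted p = 0.435).

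For the 3 subunits of RPA, one complex that covers single-stranded DNA, the 12 h rise ranged from 0.81 to 3.02. Rpa2, the middle subunit, was 251, 314 and 164 in quiescent cells, 144 at 1 h, 407 and 354 at 4 h, 672 and 619 at 7 h and 2235 and 1509 at 12 h of FGF. With U0126 it was 235 at 1 h, 195 and 203 at 4 h, 189 and 186 at 7 h and 223 and 156 at 12 h. It rose by 1.53 ± 0.26 at 7 h and 3.02 ± 0.26 at 12 h, and its U0126 effect was -1.71 ± 0.26 and -3.21 ± 0.26 at those times. Rpa1, the large subunit, was 9114, 8713 and 7219 in quiescent cells, 8957 at 1 h, 7303 and 6678 at 4 h, 8831 and 8174 at 7 h and 13550.2 and 14667 at 12 h. Its inhibited signals were 9266 at 1 h, 8348 and 7796 at 4 h, 10639 and 8189.8 at 7 h and 11516 and 10844 at 12 h. Rpa1 was the only gene of the 38 whose U0126 effect at 12 h did not pass (-0.33 ± 0.15, adjusted p = 0.172; 0.047 with the replicate block), and its second probe set gave -0.28 without a call. Rpa3, the small subunit, rose by 0.85 ± 0.14 and its U0126 effect was -0.70 ± 0.14; whether the 3 subunits differ from each other was not tested.

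Both Okazaki fragment genes rose more than 4-fold at 12 h. Fen1, the flap endonuclease that removes primer ends, was 737, 708 and 742 in quiescent cells, 1117 at 1 h, 1156 and 839 at 4 h, 1642 and 1189.5 at 7 h and 5595 and 3731 at 12 h. With the inhibitor Fen1 was 1263 at 1 h, 889.7 and 994 at 4 h, 716 and 1172 at 7 h and 913 and 1045 at 12 h. All FGF and inhibited Fen1 values at 1, 4 and 12 h exceeded the quiescent ones, although with U0126 the differences from quiescence at 4, 7 and 12 h did not pass. Lig1, the ligase that seals the pieces, was 391, 423 and 295 in quiescent cells, 266 at 1 h, 322 and 276 at 4 h, 388 and 472 at 7 h and 2145 and 1552 at 12 h. The inhibited values were 211 at 1 h, 318 and 292 at 4 h, 183 and 316 at 7 h and 284 and 280.5 at 12 h. Lig1 overlapped the quiescent range at 4 and 7 h and rose by 2.06 ± 0.25 from 7 to 12 h. The U0126 effect at 12 h was -2.21 ± 0.25 for Fen1 and -2.63 ± 0.25 for Lig1.

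Helicase partner genes rose in 5 of 5 cases, with Gins1 leading and Gins4 last. Gins1, a GINS subunit, was 142, 128 and 136 in quiescent cells, 129 at 1 h, 118 and 125 at 4 h, 389 and 336 at 7 h and 1379 and 1264 at 12 h of FGF. With U0126 its values were 106 at 1 h, 133 and 72.3 at 4 h, 83.4 and 66.5 at 7 h and 134 and 78.6 at 12 h. The 7 h values with and without the inhibitor lay on opposite sides of the quiescent range, and the U0126 effect was -2.09 ± 0.29 at 7 h and -3.51 ± 0.29 at 12 h. Cdc45, which holds MCM and GINS together in the active helicase, was 179, 255 and 197 in quiescent cells, 157 at 1 h, 204 and 115 at 4 h, 315 and 361 at 7 h and 1575 and 1291 at 12 h. It was 193 at 1 h, 174 and 187 at 4 h, 120.3 and 128 at 7 h and 179.6 and 161 at 12 h when U0126 was present. Its rise was 2.72 ± 0.25 at 12 h, and at 7 h it passed only with the block (0.68 ± 0.25, adjusted p = 0.0908; 0.037 with it). The remaining GINS genes rose by 2.02 ± 0.31 (Gins2), 1.55 ± 0.22 (Gins3) and 0.77 ± 0.15 (Gins4), and all were lower with U0126 at 12 h, with an effect of -0.92 ± 0.15 on Gins4.

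Fork protection and checkpoint mediator genes had the largest median U0126 effect of any role at 12 h, -3.91 over 3 genes, though roles were not tested against each other. That median is the Clspn value, and a second Clspn probe set gave -1.33 ± 0.51 without a call. Clspn (claspin), which carries the checkpoint signal to CHK1, was 212, 199 and 136 in quiescent cells, 192 at 1 h, 236 and 125.6 at 4 h, 369.6 and 386 at 7 h and 1916 and 1702 at 12 h. In inhibited cells it was 190.2 at 1 h, 117 and 74.6 at 4 h, 59.4 and 86.2 at 7 h and 142 and 80.8 at 12 h. All inhibited Clspn values at 4 and 7 h lay under the quiescent range. Timeless, whose protein stabilises the fork together with TIPIN, was 174, 167 and 155 in quiescent cells, 84 at 1 h, 146 and 124 at 4 h, 256 and 362 at 7 h and 877 and 924 at 12 h. With U0126 it was 178 at 1 h, 33.9 and 54.6 at 4 h, 30.6 and 43.8 at 7 h and 4.1 and 86.6 at 12 h. Of the 6 inhibited Timeless values from 4 h on, 4 were under 45.2, and the 12 h pair differed widely, so its U0126 effect (-4.44 ± 0.55) has a size that depends on the offset. A second Timeless probe set gave a smaller effect at 12 h, -2.68 ± 0.29, also called. Tipin, its partner, rose by 1.54 ± 0.17 and its U0126 effect was -1.50 ± 0.17. Inhibited and quiescent Tipin values overlapped at 12 h, at 1633 and 1425 against 1482, 1709 and 1399.

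Pclaf, a small protein that binds PCNA, rose late. It was 1014, 1408 and 988 in quiescent cells, 929.9 at 1 h, 1239 and 838 at 4 h, 1251 and 1571 at 7 h and 7710.1 and 6399.6 at 12 h of FGF. Under the inhibitor Pclaf was 909 at 1 h, 1162 and 714 at 4 h, 596 and 748 at 7 h and 683 and 547 at 12 h. Its rise from 7 to 12 h was 2.31 ± 0.24, after no call at 7 h (0.36 ± 0.24, adjusted p = 0.41). Chaf1b, a subunit of the factor that places histones on new DNA, was 159.7, 208 and 124 in quiescent cells, 85.7 at 1 h, 189.7 and 118 at 4 h, 273 and 266 at 7 h and 1533 and 836 at 12 h. Its inhibited values were 187 at 1 h, 125.7 and 106 at 4 h, 132 and 74.4 at 7 h and 117 and 142 at 12 h. The 12 h FGF pair of Chaf1b was wide, but both values were far above all others of the gene except that with U0126 added at 7 h. The rise was 2.80 ± 0.34 and the U0126 effect -3.01 ± 0.34.

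The dNTP synthesis genes rose in 5 of 5 cases at 12 h, from 0.83 for Dut to 3.94 for Tk1. Tk1 was 216, 446 and 152 in quiescent cells, 102 at 1 h, 310.2 and 166 at 4 h, 423 and 391 at 7 h and 4224 and 2974 at 12 h of FGF. With U0126 Tk1 was 211 at 1 h, 174 and 75.4 at 4 h, 106 and 65.1 at 7 h and 156 and 56.7 at 12 h. Quiescent replicate 1b exceeded both 7 h FGF values, and the gene passed at 7 h only with the block (0.86 ± 0.46, adjusted p = 0.279; 0.0155 with it). Its U0126 effect at 12 h, -5.03 ± 0.46, was the largest of the 38 genes. Rrm2, the small subunit of ribonucleotide reductase, was 892, 1041 and 616 in quiescent cells, 816 at 1 h, 1202 and 637 at 4 h, 2414 and 1876 at 7 h and 10421 and 8195 at 12 h. Inhibited cells had 819.7 at 1 h, 749.9 and 308 at 4 h, 727 and 501 at 7 h and 886 and 494 at 12 h. Rrm2 was called at both 7 h (1.45 ± 0.39) and 12 h (3.56 ± 0.39), while experiment 2 was the lower one in each of these states.

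Rrm1, the large subunit of the reductase, had a signal of 935, 1424 and 1081 in quiescent cells, 949.8 at 1 h, 1369.7 and 1107 at 4 h, 1363 and 1630.0 at 7 h and 5302 and 4196 at 12 h. Its inhibited signals were 774 at 1 h, 1012 and 901 at 4 h, 730.2 and 718 at 7 h and 1112 and 772 at 12 h. Unlike Rrm2 it was not called at 7 h (0.41 ± 0.19, adjusted p = 0.187), though the difference between the subunits was not tested. Tyms, thymidylate synthase, was dim, at 75.3, 58.6 and 66.8 in quiescent cells, 99.5 at 1 h, 90.4 and 70.4 at 4 h, 119 and 120.3 at 7 h and 333 and 348 at 12 h. With U0126 Tyms stood at 32 at 1 h, 63.9 and 77.3 at 4 h, 49.4 and 94.6 at 7 h and 61.7 and 53.8 at 12 h. Only the 12 h FGF values stood well apart (2.14 ± 0.33). Dut, the dUTPase that keeps uracil out of DNA, was 1969, 2199.7 and 2675 in quiescent cells, 1558 at 1 h, 2057 and 2327 at 4 h, 2790.2 and 2893 at 7 h and 4019 and 4410.2 at 12 h. It was 1708 at 1 h, 1349.8 and 1653 at 4 h, 1237 and 1574 at 7 h and 1362 and 1727 at 12 h with U0126. The 6 inhibited Dut values from 4 h on were all under the lowest quiescent value, and the U0126 effect at 12 h was -1.45 ± 0.17 against a rise of 0.83 ± 0.17.

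Of the methylation maintenance pair, Uhrf1 was called from 7 h on and Dnmt1 at 12 h. Uhrf1, which reads hemimethylated DNA behind the fork and recruits DNMT1, was 168, 215 and 221 in quiescent cells, 134 at 1 h, 294 and 193 at 4 h, 782 and 869 at 7 h and 2511 and 2279 at 12 h. With U0126 it measured 170.0 at 1 h, 79.1 and 81 at 4 h, 82.2 and 105 at 7 h and 149.7 and 139 at 12 h. Every inhibited value from 4 h on was under the quiescent range, and the U0126 effect was -1.43 ± 0.23 at 4 h, -2.98 ± 0.23 at 7 h and -3.93 ± 0.23 at 12 h. Dnmt1, the maintenance methyltransferase, was 497, 693 and 811 in quiescent cells, 511 at 1 h, 793 and 881 at 4 h, 791 and 1226 at 7 h and 2579 and 2353 at 12 h. Dnmt1 with the inhibitor was 548 at 1 h, 418 and 445 at 4 h, 374 and 573 at 7 h and 499 and 603 at 12 h. Its rise was called only at 12 h (1.82 ± 0.24; at 7 h 0.51 ± 0.24, adjusted p = 0.204, and 0.0395 with the block). Its U0126 effect was called at all 3 times, from -0.93 ± 0.24 at 4 h to -2.14 ± 0.24 at 12 h, but the 4 h call was lost when any of the 4 arrays compared was left out.

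**Figure D3:**
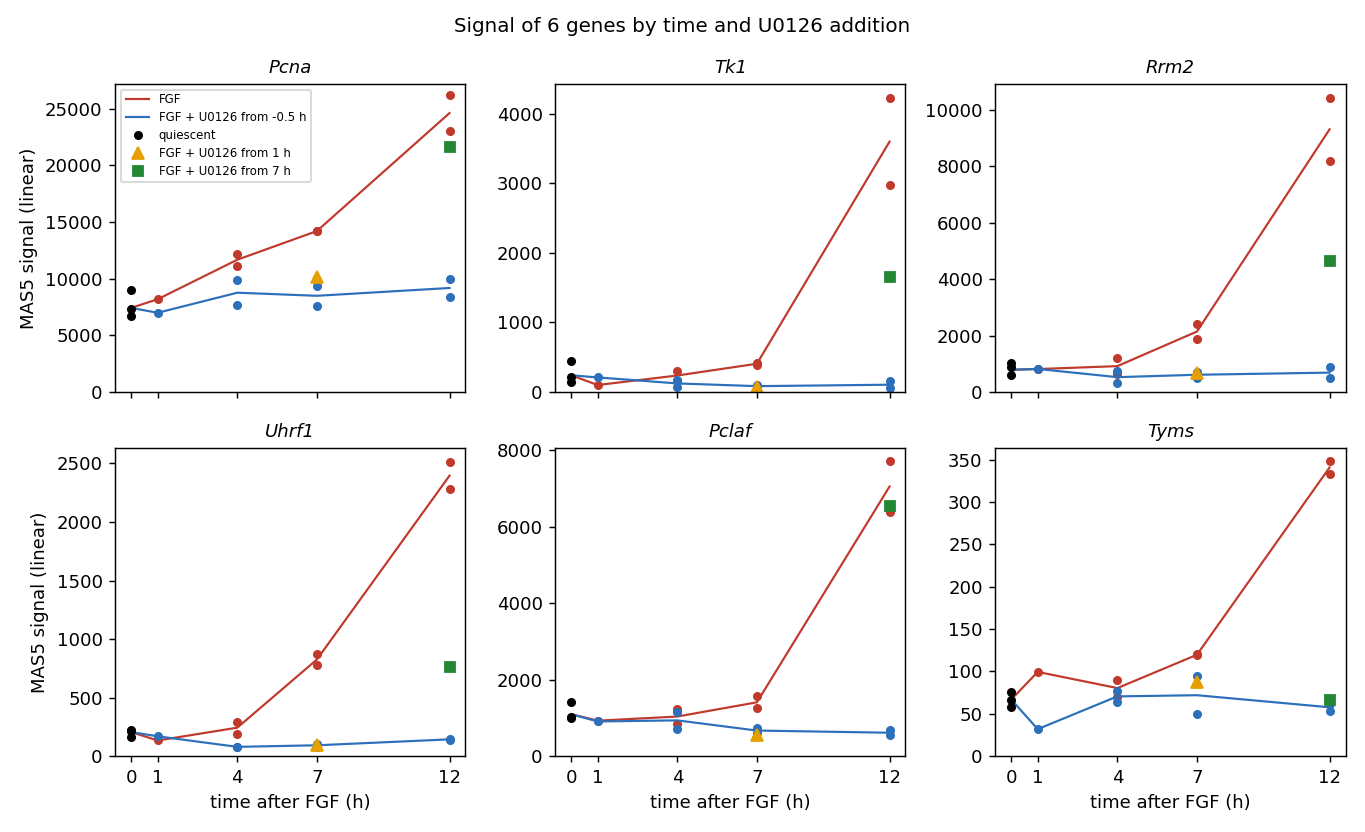
Panels show MAS5 signal (linear axis from 0) against time after FGF for 6 genes; points are arrays, lines join state means, and the triangle and the square are the arrays with U0126 added at 1 h and 7 h. At 12 h the square lies next to the FGF points for Pcna and Pclaf, between the curves for Tk1, Rrm2 and Uhrf1, and on the inhibited curve for Tyms.

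U0126 added 1 h after FGF also lowered many of these genes at 7 h. In that single array 16 of 38 were lower than with FGF alone and 0 higher, against 1.91% of all genes lower and 1.68% higher. The largest of these differences were Timeless (-4.06 ± 0.68), Uhrf1 (-2.99 ± 0.28), Dscc1 (-2.94 ± 0.41), Tk1 (-2.22 ± 0.56), Clspn (-1.91 ± 0.41) and Rpa2 (-1.87 ± 0.32), with Timeless (5.5) and Dscc1 (22.1) under 45.2 in this array. The others were Pole, Gins1, Rfc3, Dnmt1, Gins2, Pclaf, Fen1, Rrm1, Pole2 and Prim1. Compared directly with U0126 from the start at 7 h, 0 of 38 passed in limma, 2 with an unadjusted p under 0.05, and 0 with the replicate block; the share over all genes was 0% in each direction (0.02% higher and 0.00667% lower with the block). The differences ran to 0.64 (Chaf1b) with a median of 0.13 and 22 genes above zero; with the block they ran to 0.45, with a median of -0.0026 and 19 above zero. The single estimate for Timeless was -1.40 ± 0.68 and for Rpa3 0.23 ± 0.17, so the array does not show that both additions act alike. In this array Uhrf1 was 91.8 against 82.2 and 105 with U0126 from the start, Rfc3 159 against 175 and 166, and Rrm2 668 against 727 and 501. The count against FGF alone was 9 without FGF 7 h replicate 2 and 24 with the replicate block (4% of all genes), and the calls of Dscc1, Gins1, Pole, Rfc3, Rpa2, Timeless and Uhrf1 held under every alternative.

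With U0126 added 7 h after FGF, most genes lay between their levels with FGF alone and with U0126 from the start. At 12 h 15 of 38 were lower than with FGF alone and 0 higher (2.58% and 2.47% of all genes), with a median of -0.88 beside 0.04 over all genes. Against U0126 from the start, which shares the same single array, 19 were higher and 0 lower (0.56% and 0.113% of all genes), with a median of 1.33. The array lay above both arrays with U0126 from the start for all 38 genes. It lay below both FGF arrays for 35 and above both for Rpa1, while Pclaf and Rfc5 lay between the FGF arrays. These positions were not counted over all genes, and a single array can lie outside a pair without a real change. With the replicate block the counts became 27 lower than FGF alone (5.69% of all genes) and 27 higher than U0126 from the start (1.48%). Against FGF alone the count was 4 without FGF 12 h replicate 1 and 7 without replicate 2. Against U0126 from the start it was 10 without the second array of that state. The calls of Rfc3, Rpa2, Tyms and Uhrf1 against FGF alone, and of Cdc45, Dscc1, Pclaf, Pole, Prim1 and Uhrf1 against U0126 from the start, held under every alternative.

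Tyms was lowest relative to FGF alone. Its single value with U0126 at 7 h was 66, against 333 and 348 with FGF alone and 61.7 and 53.8 with U0126 from the start, a difference of -2.15 ± 0.40 from the first and 0.16 ± 0.40 from the second. It was thus within the quiescent range of 75.3, 58.6 and 66.8. Clspn was 480.3 (-1.88 ± 0.41 against FGF alone), Rpa2 518 (-1.80 ± 0.32), Gins1 411 (-1.65 ± 0.36), Uhrf1 760.1 (-1.64 ± 0.28) and Rfc3 450.0 (-1.61 ± 0.27), all called. For these 5 the array was close to the 7 h FGF level, with differences from it between -0.31 and 0.34 and no call. The other genes called lower than FGF alone were Dscc1, Fen1, Dnmt1, Gins3, Tipin, Pole2, Dut, Prim2 and Rfc1.

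Pclaf was at the opposite end. With U0126 at 7 h it was 6558, inside the range of the FGF 12 h arrays (7710.1 and 6399.6) and far above both arrays with U0126 from the start (683 and 547), a difference of -0.10 ± 0.29 from the first and 3.39 ± 0.29 from the second. Rpa1 at 14974, Rpa3 at 2524 and Pcna at 21638 also differed from FGF alone by less than 0.2 (0.09 ± 0.18, -0.03 ± 0.17 and -0.18 ± 0.20), without a call. Among genes in between, Tk1 was 1649 and Rrm2 4642, each called higher than with U0126 from the start (3.93 ± 0.56 and 2.79 ± 0.48). Below FGF alone they passed only with the replicate block (-1.48 ± 0.30 and -1.34 ± 0.22, adjusted p = 0.00336 and 0.000428 with it; -1.10 ± 0.56 and -0.99 ± 0.48, adjusted p = 0.33 and 0.297 without). Relative to U0126 from the start, Prim1 at 2414 was higher by 2.27 ± 0.21 and Pole at 801 by 2.92 ± 0.31. Among the polymerase and primase genes, Pola1 was 807, Pola2 1101, Prim2 882, Pold1 678, Pold2 1672, Pold3 295 and Pole2 1156 in this array. The clamp loader subunits Rfc1, Rfc2, Rfc4 and Rfc5 were at 875, 1239, 854 and 1320.4, and the helicase partners Gins2, Gins3 and Gins4 at 1100.5, 250.3 and 1519.5. All of these were above 45.2, the level under which signals were not shown to exceed background. Other genes were Tipin at 2191, Fen1 at 1740.3, Lig1 at 1225, Cdc45 at 773, Dscc1 at 542, Chaf1b at 602, Timeless at 291, Rrm1 at 2892, Dut at 2217 and Dnmt1 at 1028.

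Relative to FGF at 7 h, the moment U0126 was added, 10 genes were higher in this array and 0 lower (2.87% and 2.93% of all genes). They were Pclaf (2.22 ± 0.29), Pole (1.68 ± 0.31), Rfc5 (1.49 ± 0.39), Lig1 (1.49 ± 0.31), Prim1 (1.18 ± 0.21), Cdc45 (1.17 ± 0.30), Rrm1 (0.95 ± 0.23), Rfc2 (0.85 ± 0.22), Rpa1 (0.82 ± 0.18) and Rpa3 (0.66 ± 0.17). Only Pclaf and Pole held under every alternative. The replicate block gave 16 higher (6.38% of all genes), adding Pcna, Pola1, Pola2, Rfc4, Rrm2 and Tk1. Without FGF 7 h replicate 1 the count was 5 and without replicate 2 it was 6. The lowest values were Tyms (-0.74 ± 0.40) and Dut (-0.36 ± 0.21), neither of which passed.

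**Figure D4:**
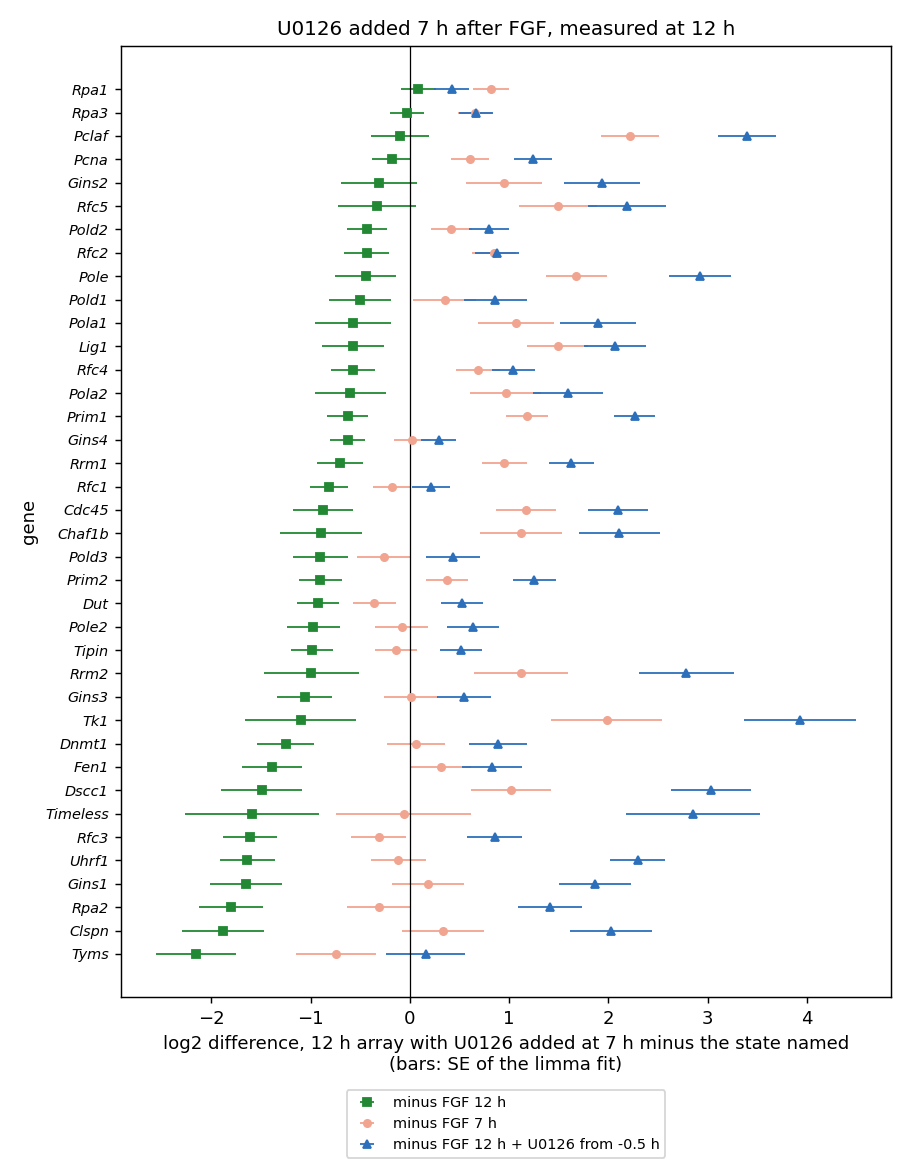
Each row is a gene; marks give the log2 difference of the single 12 h array with U0126 added at 7 h from FGF at 12 h, FGF at 7 h and FGF with U0126 from the start at 12 h, with SE of the limma fit. Against FGF at 12 h the differences run from -2.15 (Tyms) to 0.09 (Rpa1), and against U0126 from the start from 0.16 (Tyms) to 3.93 (Tk1).

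The U0126 effect was more negative at 12 h than at 7 h for all 38 genes, with a median difference of -1.31 beside 0.07 over all genes. That difference uses the same FGF arrays as the rise from 7 to 12 h, so it is not independent of that rise. In the test of that difference 3 genes passed (0.08% of all genes were called in this direction): Pclaf (-2.44 ± 0.34, adjusted p = 0.0144), Prim1 (-1.79 ± 0.24, 0.0131) and Prim2 (-1.52 ± 0.25, 0.03). The replicate block gave 21 (1.04% of all genes). The count was 0 without FGF 7 h replicate 1, without either 7 h array with U0126, without FGF 12 h replicate 1 or without the second 12 h array with U0126, and 1 without FGF 12 h replicate 2. Between 4 and 7 h the U0126 effect changed by a median of -0.67 and 0 genes passed in limma, with 14 at an unadjusted p under 0.05 (0% of all genes called lower). The block gave 4 for that step (0.16% of all genes): Dscc1, Gins1, Prim1 and Uhrf1.

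At 12 h most other genes of the pathway moved in the same direction, both with FGF against quiescence and with U0126 against FGF alone. Of 17 genes of origin licensing and the MCM helicase, which set up the sites where forks start, 11 rose at 7 h and 14 at 12 h, and 14 were lower with U0126 at 12 h. Over all genes 5.45% rose at 7 h, 8.54% rose at 12 h and 5.79% were lower with U0126 at 12 h. The block gave 13, 14 and 14 of the 17, beside 9.16%, 12.4% and 9.08% of all genes. The licensing factor Cdc6 rose by 4.23 ± 0.44, and the helicase subunits Mcm3, Mcm5 and Mcm6 by 3.46 ± 0.23, 3.42 ± 0.27 and 3.11 ± 0.27. The median of that list was 1.08 at 7 h, above the 0.66 of the fork genes, and 2.18 at 12 h; the lists were not tested against each other. Of 23 further fork and Okazaki genes 17 rose at 12 h, with a median of 1.34, and 16 were lower with U0126 at 12 h. With the block 18 had risen, 1 had fallen and 18 were lower, beside 12.4% of all genes risen and 9.08% lower. The share fallen with the block was not counted. The rises were led by the exonuclease Exo1 (3.69 ± 0.30), the nuclease and helicase Dna2 (3.12 ± 0.27), the helicase activator Mcm10 (2.97 ± 0.30) and the clamp loader subunit Chtf18 (2.20 ± 0.74, adjusted p = 0.0497).

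Of 10 further chromatin replication genes 5 rose at 12 h, and 5 were lower with U0126 at 12 h, against 8.54% and 5.79% of all genes. The block gave 7 and 7, against 12.4% and 9.08% of all genes. The genes that rose include the histone chaperones Asf1b (3.59 ± 0.29) and Nasp (1.97 ± 0.17), the chromatin remodeler Hells (3.02 ± 0.24) and its partner Cdca7 (2.11 ± 0.21). Of 28 further nucleotide synthesis genes 18 rose and 2 fell at 12 h, with a median of 0.96, and 15 were lower and 1 higher with U0126. The 2 falls and the 1 higher gene of 28 stand beside 11.8% and 6.26% of all genes, so neither is a larger share than over all genes. For this list the block gave 21 risen and 3 fallen at 12 h, and 16 lower and 2 higher with U0126. Over all genes the block gave 12.4% risen and 9.08% lower with U0126, while its shares fallen and higher were not counted. Deoxycytidine kinase Dck rose by 2.24 ± 0.44, the serine hydroxymethyltransferase Shmt1 by 1.88 ± 0.18, the deoxycytidylate deaminase Dctd by 1.88 ± 0.21 and the folate enzyme Mthfd1 by 1.70 ± 0.13. Dctd was already near its 12 h level at 7 h (1.72 ± 0.21). At 7 h 15 of these 28 genes had risen (5.45% of all genes), and the list median was 0.64 against 0.96 at 12 h. With the block 20 had risen and 2 had fallen at 7 h, beside 9.16% of all genes risen, and the share fallen was not counted. The 2 that fell at 12 h, named after their values were seen, were Ctps2 (-0.61 ± 0.18), a CTP synthase, and mitochondrial thymidine kinase Tk2 (-0.53 ± 0.17). With U0126 from the start 7, 9 and 7 of the 28 were higher than in quiescent cells at 4, 7 and 12 h, and 1, 2 and 0 lower. Over all genes 3.31%, 3.73% and 2.43% were higher, and 4.07%, 5.33% and 2.99% lower. The block gave 12, 14 and 10 higher and 1, 3 and 1 lower.

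Probe sets beyond the one that represented each gene moved the same way or missed the threshold. Of 73 probe sets kept for the 38 genes, 66 were higher at 12 h of FGF, 0 lower and 7 did not pass, the 7 being additional probe sets of Pola2, Pclaf, Chaf1b, Pole2, Rrm1, Tyms and Rfc2. For U0126 at 12 h 60 were lower, 0 higher and 13 did not pass. The 73 include the probe sets that stood for the 38 genes, of which 38 were higher with FGF and 37 lower with U0126. Shares over all 27915 probe sets were not counted. The experiments differed in level for these genes: with FGF at 12 h 6 of 38 were higher in experiment 2 and the median difference was -0.25, beside 0.01 over all genes, and at 4 h 5 of 38 were, with a median of -0.28. Within each experiment all 38 genes had a positive 12 h difference from quiescence and a negative 12 h U0126 effect. These signs follow from the separation of the same arrays given above, so they add no support, and they were not counted over all genes. The median rise was 2.20 in experiment 1 and 1.99 in experiment 2, and the median U0126 effect -2.29 and -2.42.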

How the data were processed

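RNA of 19 NIH3T3 samples was hybridised to 1 array each. The deposited values are MAS5 signal intensity on a linear scale, scaled by the authors to a trimmed mean of 500 per array, per the submitters' processing notes and the labels; the MAS5 version was not given in the sources used here. The members and gene lists were chosen with earlier results of these data known. Every one of the 39 genes could be named, other pathway genes only as the 4 largest changes of a list at 12 h, unless stated. The log2 scale was reached with 13.6, the 20th percentile of all values, added to each signal. Probe sets above the 40th percentile on 2 or more arrays were kept, and the one with the highest mean log2 stood for its gene. All 11 groups were fitted together (18 columns) with limma 3.58.1 in R 4.3.3, with a variance trend, 7 residual and 7.48 prior degrees of freedom. Tests were two-sided. The number of arrays limits the precision.

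Deviations of samples with the same experiment number correlated between groups in all 21 pairs of groups (0.124 to 0.304), so the numbers pair the samples. Calls are from the unblocked fit unless stated, and the fit with the experiment as a block had 6 residual degrees of freedom. Alternatives were other scalings, offsets, filters and probe sets, no variance trend, separate quiescent arrays, only the compared groups, the block, and leaving out each array, where a state's remaining array took its spread from the other states. Scripts were tested on simulated data with known changes. Promoter letters came from RefSeq windows.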

Additional observations from a re-analysis of the deposited data

Results flagged for a closer look

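The U0126 effect differed between 7 and 12 h, by the test of the difference itself, for 3 of the 38 genes. The test shares its FGF arrays with the rise from 7 to 12 h and is not independent of it. For Pclaf, which binds PCNA, the effect at 12 h minus that at 7 h was -2.44, for the catalytic primase subunit Prim1 -1.79 and for the regulatory subunit Prim2 -1.52, on the log2 scale with 2 samples per state. The effect itself was -1.06 at 7 h and -3.49 at 12 h for Pclaf, -1.10 and -2.89 for Prim1, and -0.64 and -2.16 for Prim2. The count was 0 when any of 5 of the 8 arrays compared was left out.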

How the results depend on the processing

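With 1 or 2 arrays per state, calls near the threshold move with the processing. Of the single genes' differences recomputed under the alternatives, 9642 kept their side of the threshold, 391 lost a call, 189 gained one and 0 called differences reversed. Differences without a call could change sign: for U0126 at 1 h against U0126 from the start, 22 of 38 genes were above zero, and 19 with the experiment as a block. Counts are given as called genes of 38. The cause was not tested.

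Against quiescence at 4 h (2) quantile normalization gave 1, 75th percentile scaling 1, no variance trend 0, the probe set of highest variance 1 and only the compared groups 1. At 7 h (12) no trend and highest variance each gave 7. From 4 to 7 h (1) an offset at the 40th percentile gave 2, and no trend, highest variance or the compared groups 0. From 7 to 12 h (31) no trend gave 20. For the U0126 effect no trend gave 1 at 4 h (3) and 12 at 7 h (21). Against quiescence with U0126, at 4 h (2) no trend gave 1, separate quiescent arrays 4 and highest variance 0, at 7 h (5) separate arrays gave 11, and at 12 h (2) an offset of 1, no filter, no trend and highest variance each gave 1 and separate arrays 4. With U0126 at 1 h (16) no trend gave 8. With U0126 at 7 h against FGF at 12 h (15) no trend gave 6 and highest variance 8, against U0126 from the start (19) no trend 6, and against FGF at 7 h (10) both gave 3. For the effect at 12 h minus 7 h (3) the 40th percentile offset gave 8, no trend 0 and highest variance 1.

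With the replicate block the counts were 1 at 1 h, 4 at 4 h and 21 at 7 h against quiescence, 9 from 4 to 7 h, 8 for the U0126 effect at 4 h, 9, 15 and 10 for U0126 against quiescence at 4, 7 and 12 h, 27 and 16 for U0126 at 7 h against FGF at 12 and 7 h, and 21 and 4 for the differences of the effect between 12 and 7 h and between 7 and 4 h. Other counts stayed within 1.5 times under the block.

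Leaving out single arrays gave 0 to 2 calls at 4 h, 3 to 12 at 7 h and 36 to 38 at 12 h against quiescence, 0 to 1 from 4 to 7 h, and 7 to 24 from 7 to 12 h. The U0126 effect gave 1 to 2, 14 to 16 and 37 to 37 at 4, 7 and 12 h, and U0126 against quiescence 0 to 3, 1 to 7 and 0 to 4. U0126 at 1 h gave 9 to 12, and U0126 at 7 h gave 4 to 7 against FGF at 12 h, 10 to 18 against U0126 from the start and 5 to 6 against FGF at 7 h. The 12 h minus 7 h effect gave 0 to 2.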

Other observations

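Genes outside the 39 that set up or feed the fork were also measured on the array with U0126 added at 7 h. Of 17 origin licensing and helicase genes 7 were lower there than with FGF alone at 12 h, among them Cdc6 (-2.03 ± 0.54) and Mcm3 (-1.33 ± 0.28), while Mcm6 (-1.03 ± 0.33) did not pass. Of 10 chromatin replication genes 4 were lower, including Nasp (-1.78 ± 0.20), Cdca7 (-1.73 ± 0.26) and Hells (-1.60 ± 0.29). Of 23 further fork genes 4 were lower, including Exo1 (-1.93 ± 0.37) and Mcm10 (-1.72 ± 0.36). Of 28 further nucleotide synthesis genes 7 were lower and 1 higher, including lower Shmt1 (-1.67 ± 0.22) and Dctd (-1.14 ± 0.25), while Dck (-0.18 ± 0.53) did not pass. The share of all genes called lower was 2.58% and the share called higher was 2.47%, so the 1 higher gene of 28 is near the latter. With the replicate block the counts lower were 14 of 17, 6 of 10, 9 of 23 and 12 of 28, and this block left 5.69% of all genes called lower.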
